A study of Mus musculus with 11 samples.

Results

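The genes described here are the fibroblast growth factor (FGF) family and the genes that carry or restrain its signal to the kinase ERK in mouse MC38 tumours. They comprise 40 of the 55487 genes of the deposited expression table and were chosen by name, with earlier results of these data known. There are 18 secreted FGF ligands, 4 intracellular FGF homologues, 5 receptors, 2 Klotho co-receptors, 1 receptor adaptor, 8 feedback inhibitors and 2 ETS transcription factors.

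MC38 is a mouse colon carcinoma line. It was made into lines carrying a short hairpin RNA against Fgf21 (shFgf21) or a control hairpin (shNC), and the study asked how FGF21 affects CD8+ T cells. Bulk RNA-seq covered 11 libraries: shFgf21 sorted cells (n = 2), shNC sorted cells (n = 3), shFgf21 tumours (n = 3) and shNC tumours (n = 3). Sorted libraries are described as T cells taken from the tumours, and both kinds of sample are labelled with the tissue tumour. The tumour libraries are also labelled with the line MC38 and the cell type mesenchymal cell, and whether they are whole tumours, tumour cells taken from them or cultured cells cannot be told from the labels. Sorted titles carry strings of numbers, as if animals had been pooled, and nothing in the labels ties a library to its own animal. Spread within a group may thus be partly technical, and the p-values rest on that spread. Replicate 2 of the shFgf21 sorted cells is listed under FGF22 knockdown although its title follows that of replicate 1; it was kept by its title, and results that change without it are given both ways. Age, strain, the hairpin sequence and the time of harvest were not given in the sources used here.

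FGFs are secreted proteins that bind receptor tyrosine kinases together with heparan sulphate or a Klotho co-receptor. The receptor recruits the adaptor FRS2, which feeds RAS, RAF, MEK and ERK. ERK in turn induces Sprouty, Spred and Dusp6 genes, whose products damp the same pathway, and the ETS factors Etv4 and Etv5, so these genes are widely used as readouts of FGF and ERK activity. FGF21 is an endocrine ligand made mainly in liver, and it needs β-Klotho, the product of Klb, beside an FGF receptor.

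Total counts per library lay between 14944013 and 19099350. The sorted libraries did not match their T cell label alone. Summed over 10 T cell markers, they held 348 to 426 CPM (counts scaled to a common library size) in shFgf21 and 312.5 to 638 CPM in shNC, whereas 9 macrophage markers summed to 16460 to 17960 CPM in shFgf21 and 10390 to 12730 CPM in shNC. The tumour libraries held almost no leukocyte RNA: Ptprc, which encodes CD45, lay at 262 to 304 CPM in sorted cells, against 0 to 0.404 CPM in shFgf21 and 0.241 to 0.974 CPM in shNC tumours. Cd3e, Cd8b1 and Cd2 were at 0 in every tumour library. The 6 fibroblast markers were abundant in both kinds of sample, at 1520 to 2167 CPM in sorted cells and 1610 to 4159 CPM in tumours. They did not move together: 3 were called higher and 2 lower in shFgf21 sorted cells, and 1 higher and 2 lower in shNC sorted cells. Their sum is thus not a measure of fibroblast content. Sums of 5 epithelial markers were 16.4 to 43.4 CPM in sorted cells and 2.14 to 6.82 CPM in tumours. For 5 endothelial markers they were 15.3 to 33.4 CPM and 1.66 to 13.6 CPM. In bulk RNA, fewer cells of a type and less RNA per cell cannot be told apart.

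Promoters of 3 members are shown as examples of patterns described below: Spry1 was higher in sorted cells, its paralogue Spry2 was abundant everywhere, and Fgfrl1 was higher in tumours. Other members, such as Fgf13, differed more than Fgfrl1. Each window runs from 250 bases before to 50 bases after the RefSeq start on GRCm38.p6, and capitals mark the ETS-type motif CCGGAAG.
Spry1, chr3:37639697-37639996, plus strand: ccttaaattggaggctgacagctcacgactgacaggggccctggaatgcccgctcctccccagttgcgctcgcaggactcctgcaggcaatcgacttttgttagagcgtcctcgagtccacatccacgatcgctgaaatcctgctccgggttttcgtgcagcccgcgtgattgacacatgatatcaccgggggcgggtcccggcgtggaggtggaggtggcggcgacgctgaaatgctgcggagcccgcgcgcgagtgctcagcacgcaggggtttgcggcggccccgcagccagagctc
Spry2, chr14:105896770-105897069, minus strand: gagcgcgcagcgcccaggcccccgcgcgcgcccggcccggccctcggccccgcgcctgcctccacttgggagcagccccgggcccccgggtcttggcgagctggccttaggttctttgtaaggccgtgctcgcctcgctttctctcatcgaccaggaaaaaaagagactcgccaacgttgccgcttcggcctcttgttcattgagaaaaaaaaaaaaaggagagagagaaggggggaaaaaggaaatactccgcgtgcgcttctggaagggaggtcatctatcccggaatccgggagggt
Fgfrl1, chr5:108693979-108694278, plus strand: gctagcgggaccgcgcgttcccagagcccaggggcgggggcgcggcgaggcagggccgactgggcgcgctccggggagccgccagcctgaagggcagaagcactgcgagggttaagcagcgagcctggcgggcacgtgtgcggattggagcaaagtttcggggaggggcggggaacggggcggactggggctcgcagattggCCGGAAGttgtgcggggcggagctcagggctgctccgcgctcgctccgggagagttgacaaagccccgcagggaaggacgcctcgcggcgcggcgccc
All of them were richer in G and C than the median window of the genome's genes, at 64.3% for Spry1, 62.7% for Spry2 and 73.7% for Fgfrl1 against 52.7%. CpG sites numbered 29, 28 and 37 in that order, against a median of 7. Windows were found for 30 of the 40 members, 38 windows in all. CCGGAAG, searched on both strands, occurred in 2 of these 38 windows (5.26%), those of Fgfrl1 and Frs2, and in 8.86% of 32851 windows of all genes. The AP-1 motif TGANTCA, also searched on both strands, occurred in 2 windows, of Fgf12 and Fgf13, against 7.81% of all windows. These matches describe the letters of the windows, not occupied sites.

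Most of the ligands had few or no counts in either kind of sample. Of the 18, 5 (Fgf3, Fgf4, Fgf5, Fgf6 and Fgf20) had 0 counts in every library, and Fgf21 and Fgf8 never exceeded 3 counts. A further 7 (Fgf9, Fgf15, Fgf16, Fgf17, Fgf18, Fgf22 and Fgf23) averaged under 1 CPM in every group. Only Fgf7, Fgf10 and Fgf1 averaged at least 1 CPM in every group, and Fgf2 did so in some.

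The ligands under 1 CPM had scattered counts: 0 to 14 per library for Fgf17 and Fgf23, 0 to 8 for Fgf15, 0 to 7 for Fgf9, 0 to 5 for Fgf16 and 1 to 8 for Fgf18. Fgf22, which the genotype label of 1 library names, had 8 and 8 counts in shFgf21 sorted cells, against 6, 1 and 2 counts in shNC sorted cells. In tumours it had 8, 2 and 12 counts with shFgf21, against 12, 19 and 5 counts with shNC. The library listed under FGF22 thus held as many counts as its partner. Rnf126 lies on the opposite strand there with 1150 to 1924 counts, so these reads are uncertain.

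Fgf21 itself (ENSMUSG00000030827, mm10 chromosome 7, 45613886 to 45615490, minus strand), the target of the hairpin, could not be used to check the knockdown. It had 0 counts in all 3 shFgf21 tumours, against 0, 2 and 1 counts in shNC tumours 1, 2 and 6, and 0 counts in every sorted library of both arms. A count of 0 allows up to 3 counts, which is 0.157 to 0.201 CPM in these libraries, so both arms lay at or under the limit of detection. These limits cover counting error only. Klb, its co-receptor, had 0 to 4 counts in any library, and Kl, the co-receptor of FGF23, had 2 counts in 1 shNC sorted library and 0 elsewhere.

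**Figure D1:**
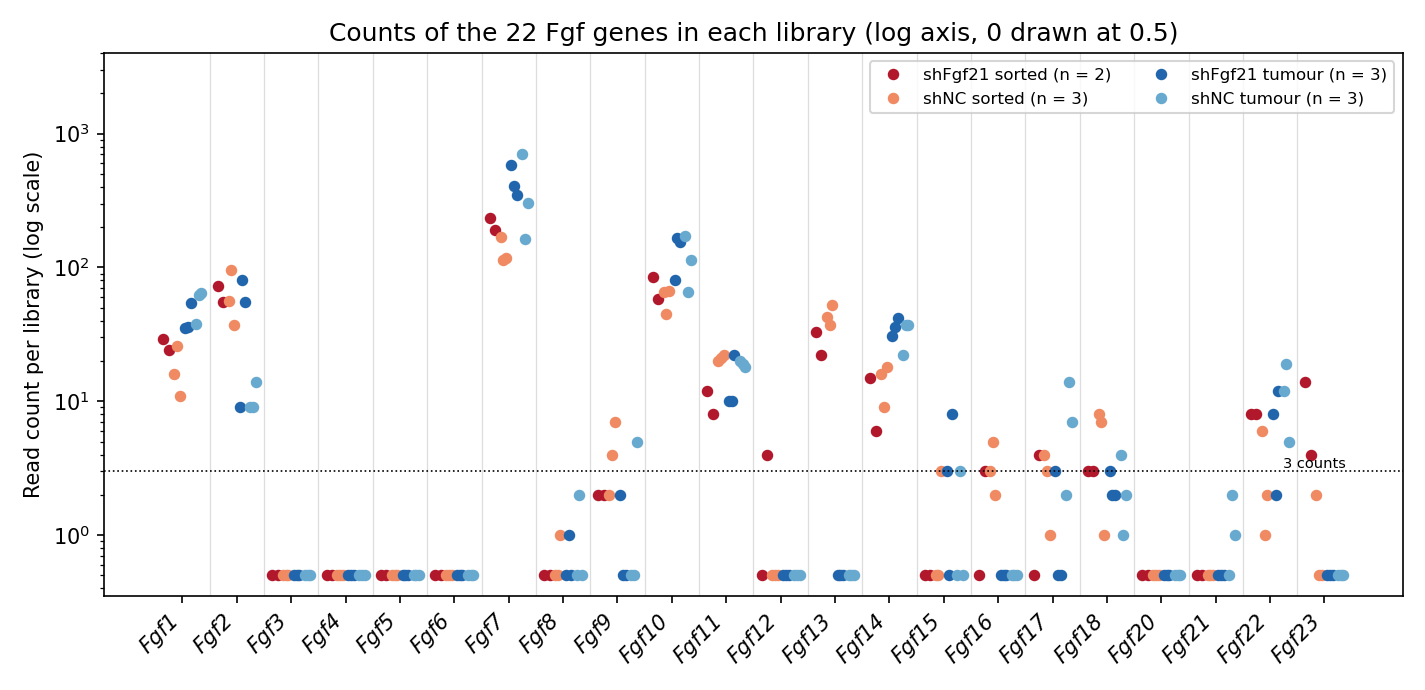
Raw counts of the 22 Fgf genes (ligands and intracellular homologues) in each library, on a log axis with 0 drawn at 0.5 counts; the dotted line marks 3 counts. Fgf21 stays at 0 in all libraries but 2 of the shNC tumours, at 2 and 1 counts.

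Fgf7, a mesenchymal factor that acts on epithelia through FGFR2b, was the ligand with the highest FPKM (fragment counts scaled for gene length and library) in all 11 libraries. It had 16.7 and 13.1 CPM in shFgf21 sorted cells, against 11.4, 8.01 and 7.37 CPM in shNC sorted cells. In tumours it had 33.8, 25.4 and 20.04 CPM with shFgf21, against 45.7, 7.89 and 15.1 CPM with shNC. The shFgf21 sorted cells were both above their controls, while the shNC tumours enclosed the whole range of the shFgf21 tumours. The highest shNC tumour, replicate 1, was also the one with the highest fibroblast marker sum, 4159 CPM against 2379 to 2402 CPM in its partners; the part of this in its Fgf7 level was not tested. The same library was highest for Fgf10, another ligand of FGFR2b, at 11.2 CPM.

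Fgf10 had 6.03 and 3.96 CPM in shFgf21 sorted cells, against 3.16 to 4.38 CPM in shNC sorted cells. In tumours it had 4.68, 10.4 and 8.95 CPM with shFgf21, against 11.2, 3.13 and 5.74 CPM with shNC. Its groups overlapped in both comparisons. Fgf1, which can bind all FGF receptors, had 0.687 to 2.06 CPM in sorted cells and 2.02 to 3.22 CPM in tumours.

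Fgf2, a ligand without a classical secretion signal that is stored in matrix, varied widely within the shFgf21 tumours. It had 0.521, 4.97 and 3.18 CPM in shFgf21 tumours, against 0.585, 0.433 and 0.704 CPM in shNC tumours. Replicates 2 and 3 of the shFgf21 tumours stood above all shNC tumours and replicate 1 lay among them. In sorted cells it had 5.18 and 3.75 CPM with shFgf21, against 3.78, 6.74 and 2.31 CPM with shNC. Nudt6 is encoded on the opposite strand of the same region and had 46 to 100 counts per library; whether counting used strand was not given, so reads of the pair may not be told apart.

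Fgfr1 was the only receptor kinase gene above 1 CPM on average in any group. Fgfr1 had 205 and 154.5 CPM in shFgf21 sorted cells, against 191, 167 and 187.5 CPM in shNC sorted cells. In tumours it had 344, 312 and 314 CPM with shFgf21, against 397, 364 and 295 CPM with shNC. Every tumour exceeded every sorted library. Fgfr2, which reads FGF7 and FGF10, had 0 to 12 counts per library, Fgfr3 4 to 26 counts, and Fgfr4 at most 3. The annotated span of Fgfr2 is 2960900 bp and covers many other genes, so its few counts are uncertain.

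Fgfrl1, a receptor that binds FGFs but lacks the kinase domain, had 18.2 and 16.7 CPM in shFgf21 sorted cells, against 12.5, 12.8 and 14.3 CPM in shNC sorted cells. In tumours it had 33.5, 26.7 and 30.4 CPM with shFgf21, against 45.6, 23.8 and 25.1 CPM with shNC. Frs2, the adaptor, lay between 33.0 and 51.4 CPM in all libraries.

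Among the intracellular homologues, which resemble FGFs but act on sodium channels and other partners inside the cell, Fgf13 separated the kinds of sample completely. It had 33 and 22 counts in shFgf21 sorted cells and 43, 37 and 52 counts in shNC sorted cells, against 0 in all tumours. Fgf14 went the other way, with 6 to 18 counts in sorted cells and 22 to 42 counts in tumours. Fgf11 had 8 to 22 counts per library. Fgf12 had 4 counts in 1 shFgf21 sorted library and 0 in all others.

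Most of the feedback inhibitors were among the abundant members. On the deposited FPKM scale, Dusp6 and Spry2 took the first places in all groups. Dusp6, a phosphatase specific for ERK, led in sorted cells at 38.4 ± 8.22 FPKM with shFgf21 (SD, n = 2) and 43.0 ± 1.27 FPKM with shNC (SD, n = 3). Spry2, a Sprouty inhibitor of receptor signalling, led in tumours at 55.5 ± 7.32 FPKM with shFgf21 and 49.1 ± 6.70 FPKM with shNC (SD, n = 3 each). In shFgf21 sorted cells Dusp6 and Spry2 (37.0 ± 4.0 FPKM) differed by less than their SD. Spry2 made up 71.4% to 77.4% of the summed FPKM of the 4 Sprouty genes in every library. These orders depend on the gene lengths behind the FPKM. The deposited values imply 5928 bp for Dusp6, whose whole locus spans 4259 bp, 24809 bp for Fgfr1 and 2087 bp for Spry2. By mean CPM, Fgfr1 came first in tumours, at 324 with shFgf21 and 352 with shNC. Dusp6 (195 and 197 CPM) then exceeded Spry2 (112 and 96.8 CPM).

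**Figure D2:**
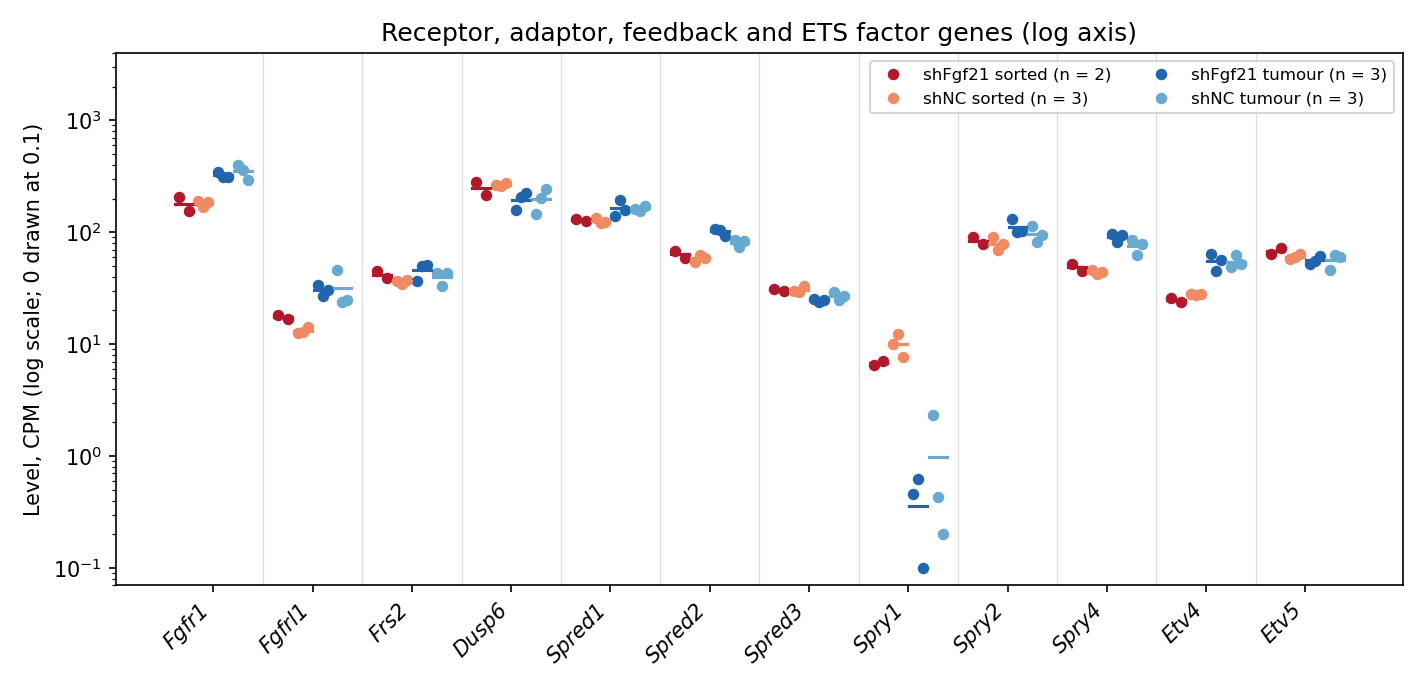
CPM of the signalling members in each library, on a log axis with 0 drawn at 0.1 CPM; points are libraries and bars are group means, with shFgf21 left of shNC. No difference between arms was called within a kind of sample. The arms do not overlap for Etv4, Fgfrl1, Frs2 and Spry1 in sorted cells and for Spred2 in tumours. Spry1 is higher and Fgfr1, Etv4 and Spry4 are lower in sorted cells than in tumours.

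Spry1 had a pattern unlike its paralogues. It had 6.45 and 7.03 CPM in shFgf21 sorted cells, against 10.05, 12.4 and 7.74 CPM in shNC sorted cells. In tumours it had 0.463, 0.622 and 0 CPM with shFgf21, against 2.34, 0.433 and 0.201 CPM with shNC. Spry4 was instead lower in sorted cells, at 42.6 to 52.3 CPM, against 95.8, 81.6 and 93.9 CPM in shFgf21 tumours and 85.0, 62.9 and 78.9 CPM in shNC tumours. Spry3 stayed under 1 CPM in every library.

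The Spred proteins bind RAS and RAF pathway members at the membrane. Spred1 lay between 122 and 194 CPM, Spred2 between 54.4 and 107 CPM, and Spred3 between 23.9 and 32.8 CPM. Of the ETS factors, Etv4 had 25.9 and 23.9 CPM in shFgf21 sorted cells and 28.3, 27.7 and 27.8 CPM in shNC sorted cells. In tumours Etv4 had 64.0, 45.1 and 56.4 CPM with shFgf21, against 48.5, 62.5 and 51.8 CPM with shNC. Etv5 differed less between libraries, at 46.3 to 72.8 CPM throughout.

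In sorted cells, no member passed the test for knockdown of Fgf21 in the tumour cells. Of the 40 members, 20 had enough counts to be tested, and 0 were called by edgeR's quasi-likelihood test with Benjamini-Hochberg adjusted p under 0.05 over all genes. The background was low, with 13 of 16454 genes called (0.079%). At an unadjusted p under 0.05 there were 4 members, against 1842 of all genes (11.2%), and DESeq2 and limma voom also called 0 members.

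Those 4 members, by edgeR, were Fgf7 and Fgfrl1 with positive and Spry1 and Fgf11 with negative log2 fold changes. Fgf7 differed by 0.72 ± 0.224 (SE) on the log2 scale, with an adjusted p of 0.316. Spry1 differed by -0.59 ± 0.228 with an adjusted p of 0.399, Fgfrl1 by 0.38 ± 0.142 with an adjusted p of 0.390, and Fgf11 by -1.015 ± 0.402 with an adjusted p of 0.412. For 7 of the 20 the libraries of the arms did not overlap, against 29.8% of all genes tested. The macrophage marker sum was higher in the shFgf21 sorted cells, at 16460 and 17960 CPM against 10390 to 12730 CPM in shNC, and its part in these differences was not tested.

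The abundant ERK readouts had small fold changes in sorted cells, while the less abundant Spry1 had the larger value of -0.59 given above. The 8 feedback and ETS genes above 10 CPM in every group (Dusp6, Spry2, Spry4, Spred1, Spred2, Spred3, Etv4 and Etv5) had log2 fold changes between -0.18 and 0.15, with SEs of 0.0897 to 0.135. The 16 members with an unadjusted p of at least 0.05 ranged from -0.62 to 0.61. A test that misses its threshold does not show that the levels were equal.

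In tumours no member passed the test either. Of 20 members tested 0 were called by edgeR, DESeq2 or limma voom, with 5 of 14950 genes (0.0334%) called by edgeR. At an unadjusted p under 0.05 there were 2 members, against 930 of all genes (6.22%). Fgf2 had the larger log2 fold change of these, 2.31 ± 0.708 (SE), with an edgeR adjusted p of 0.640. Without shFgf21 replicate 2, the library with 4.97 CPM, it was 1.68.

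Spred2 was the other, with 107, 105 and 93.5 CPM in shFgf21 tumours against 85.1, 73.5 and 84.0 CPM in shNC tumours. Its log2 fold change was 0.33 ± 0.129 with an edgeR adjusted p of 0.773. It was also the only 1 of the 20 whose arms did not overlap, against 11.8% of all genes tested. The 8 abundant feedback and ETS genes ranged from -0.14 to 0.33, with SEs of 0.129 to 0.209, and the 18 members with an unadjusted p of at least 0.05 from -0.58 to 0.34. The fibroblast marker sum was 1610 to 2028 CPM in shFgf21 tumours and 2379 to 4159 CPM in shNC tumours, and its part in these values was not tested.

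**Figure D3:**
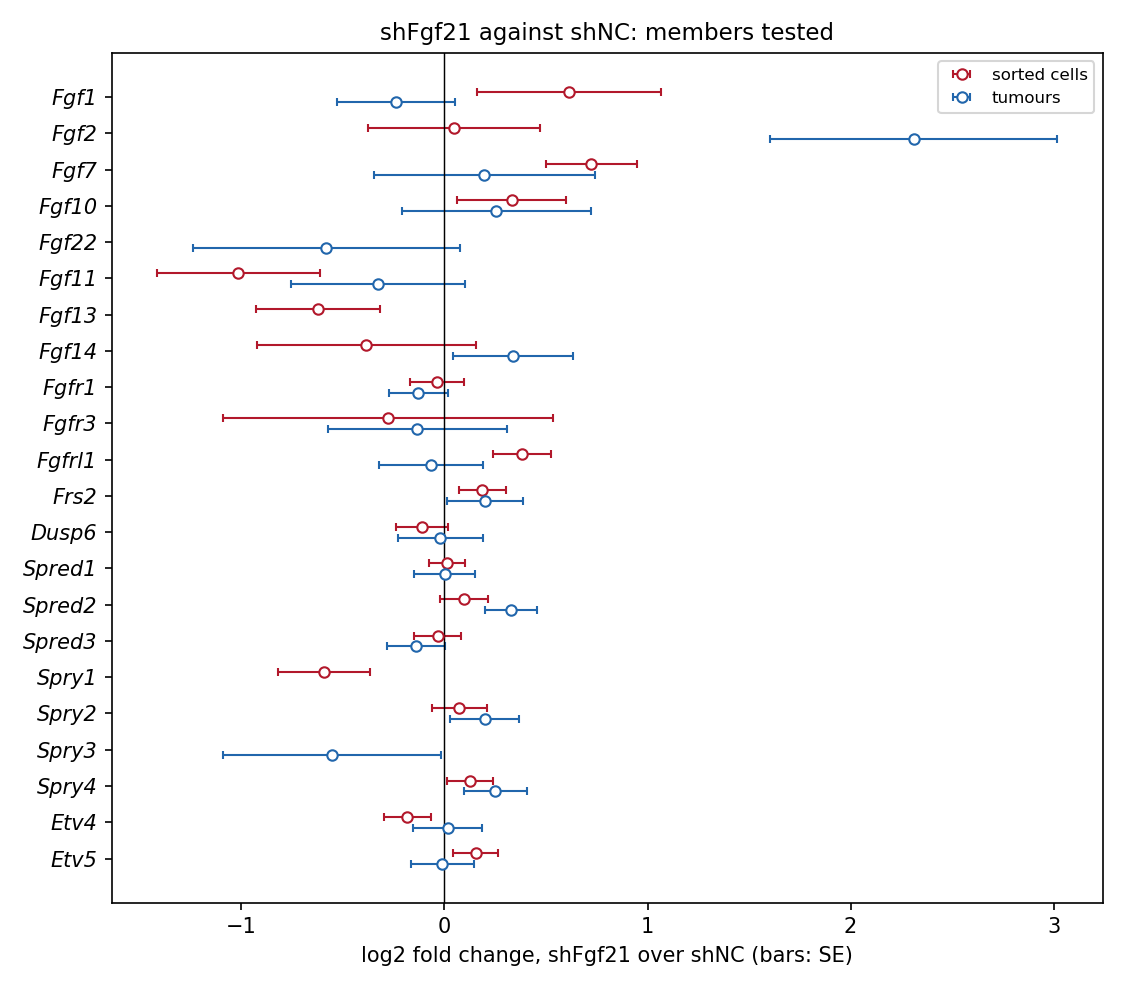
Log2 fold change of each tested member, shFgf21 over shNC, in sorted cells and in tumours. Bars are 1 SE derived from the edgeR F statistic, and open points are not called at an adjusted p under 0.05. All points are open, and Fgf2 in tumours lies farthest from 0 at 2.31.

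Whether knockdown acted differently in the 2 kinds of sample was tested with an interaction term over the 4 groups. Of 22 members tested 0 were called by edgeR, DESeq2 or limma voom, and 1 of 17327 genes (0.00577%) was called by edgeR. Fgf2 alone had an unadjusted p under 0.05, with a difference of -2.25 ± 0.95 (SE, log2; sorted effect minus tumour effect) and an edgeR adjusted p of 1.

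More members were called between sorted cells and tumours than for the hairpin. These comparisons use the same libraries as those for knockdown. In the shNC arm, 10 of 21 tested members were called between sorted cells and tumours, 3 higher and 7 lower in sorted cells. Of all 16104 genes, 31.0% were called, 19.1% higher and 11.9% lower, so differences of this sort were common. Higher calls made up 61.6% of these, and 53.4% under upper-quartile scaling. The libraries of 14 of the 21 did not overlap, against 47.2% of all genes.

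Higher in shNC sorted cells were Fgf13, Spry1 and Fgf2. In shNC tumours they averaged 0, 0.991 and 0.574 CPM. They had enough counts to be tested only through the sorted cells, so a call in the other direction was hardly possible. Fgf13 was at least 54.5-fold higher, taking 3 counts over the 3 tumours as the limit of a group at 0. Spry1 was higher by 3.41 ± 0.708 and Fgf2 by 2.88 ± 0.470 (SE, log2), with edgeR adjusted p-values of 0.00775 and 0.00234. The Spry1 value was 4.96 without tumour replicate 1, the one with 2.34 CPM, and 4.63 with limma voom; both kept the call.

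Lower in shNC sorted cells were Fgfr1 and Fgfrl1, 4 feedback and ETS genes and 1 ligand. Fgfr1 was lower, at -0.95 ± 0.139 on the log2 scale (edgeR adjusted p = 0.0013), and Fgfrl1 at -1.25 ± 0.261 (edgeR adjusted p = 0.00797). Among the ERK readouts, Etv4 lay at -0.96 ± 0.131 and Spry4 at -0.77 ± 0.138, with edgeR adjusted p-values of 0.000935 and 0.0037. Smaller differences were called for Spred2 (-0.46), Spred1 (-0.37) and the low ligand Fgf1 (-1.28), with edgeR adjusted p-values of 0.0187, 0.0263 and 0.0369. These 3 calls did not hold under all settings. With no filter on low counts Spred1 and Fgf1 were not called (adjusted p = 0.0573 and 0.0501). Spred2 was not called without sorted replicate 1 or 3 or tumour replicate 6 (adjusted p up to 0.0811), Spred1 without any 1 sorted replicate or tumour replicate 6 (up to 0.114), and Fgf1 without sorted replicate 1 or 3 or tumour replicate 2 or 6 (up to 0.12).

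Not all ERK readouts followed. Dusp6 had 259 to 273 CPM in shNC sorted cells and 146, 204 and 243 CPM in shNC tumours. Its log2 fold change was 0.43 ± 0.178, opposite in sign to Etv4 and Spry4, with an edgeR adjusted p of 0.109, and 0.0432 without shNC tumour replicate 6. Across the settings tried, its adjusted p lay between 0.0432 and 0.238. Etv5 and Spred3 were also positive, at 0.11 ± 0.14 and 0.18 ± 0.126, and Spry2 was negative at -0.29 ± 0.159. None of them was called, with edgeR adjusted p-values of 0.595, 0.317 and 0.213. Fgf7 had a log2 fold change of -1.35 ± 0.579 and an edgeR adjusted p of 0.117; without shNC tumour replicate 1 it was -0.36 with an adjusted p of 0.426, and without replicate 2 it was -1.76 with an adjusted p of 0.0231.

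The shFgf21 arm shares no library with the shNC arm. There, 9 of 20 tested members were called by edgeR, 2 higher and 7 lower in sorted cells, against 35.8% of all 16229 genes (22.7% higher and 13.1% lower). Higher calls made up 63.5% of these, and 51.4% under upper-quartile scaling. The libraries of 13 of the 20 did not overlap, against 61.8% of all genes. Fgf13 was at least 32.5-fold higher, and Spry1 was higher by 4.24 ± 0.637 (SE, log2; edgeR adjusted p = 0.00134). The Spry1 value was 3.65 without tumour replicate 3, 4.84 without tumour replicate 2 and 6.10 with limma voom, and was called in each. Fgf2, called in the shNC arm, had a log2 fold change of 0.66 ± 0.667 here with an edgeR adjusted p of 0.477.

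Etv4 was lower in shFgf21 sorted cells, at -1.12 ± 0.186 on the log2 scale, as was Spry4 at -0.86 ± 0.144, both with an edgeR adjusted p of 0.00228. Fgfr1 lay at -0.82 ± 0.151, Fgfrl1 at -0.77 ± 0.165 and Spred2 at -0.66 ± 0.133, with edgeR adjusted p-values of 0.00374, 0.00806 and 0.00623. Fgf7 at -0.80 ± 0.241 and Fgf14 at -1.52 ± 0.461 passed more narrowly, with edgeR adjusted p-values of 0.0336 and 0.0341. Dusp6, Etv5 and Spred3 were positive and not called, at 0.37 ± 0.185, 0.31 ± 0.146 and 0.33 ± 0.138. Their edgeR adjusted p-values were 0.153, 0.133 and 0.102. Spry2 and Spred1 were negative and not called, at -0.38 ± 0.153 and -0.32 ± 0.156 (edgeR adjusted p = 0.0888 and 0.148). Without sorted replicate 2, the one listed under FGF22, 4 members were called; Fgfr1, Fgfrl1, Spred2, Fgf7 and Fgf14 were not. Over all genes 2868 of 16830 were then called, 2420 higher and 448 lower. Without sorted replicate 1 there were 8 members and 3378 of 16845 genes. Fgf7 also lost its call without sorted replicate 1 or tumour replicate 2 (adjusted p = 0.0765 and 0.0615), and Fgf14 without tumour replicate 2 or 3 (0.072 and 0.0784). With no filter on low counts both were lost as well (0.0824 and 0.0643), and Fgf7 with all 4 groups in 1 fit (0.278). Without sorted replicate 1 the Fgf14 log2 fold change was -2.35.

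Called in both arms and in the same direction were 7 members: Etv4, Fgf13, Fgfr1, Fgfrl1, Spred2, Spry1 and Spry4. They make up 70.0% of the members called in the shNC arm and 77.8% of those called in the shFgf21 arm. Over all genes the shares were 78.2% and 67.3%. Of the 7, Etv4, Spry4, Fgf13 and Spry1 were called under every setting in which they were tested. Fgf13 and Spry1 averaged under 1 CPM in the tumours of both arms and had enough counts to be tested only through the sorted cells. Their shared direction was thus hardly free to differ. T cell, macrophage and CD45 markers, all near 0 in tumours, moved with every one of these differences, and their part in them was not tested.

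**Figure D4:**
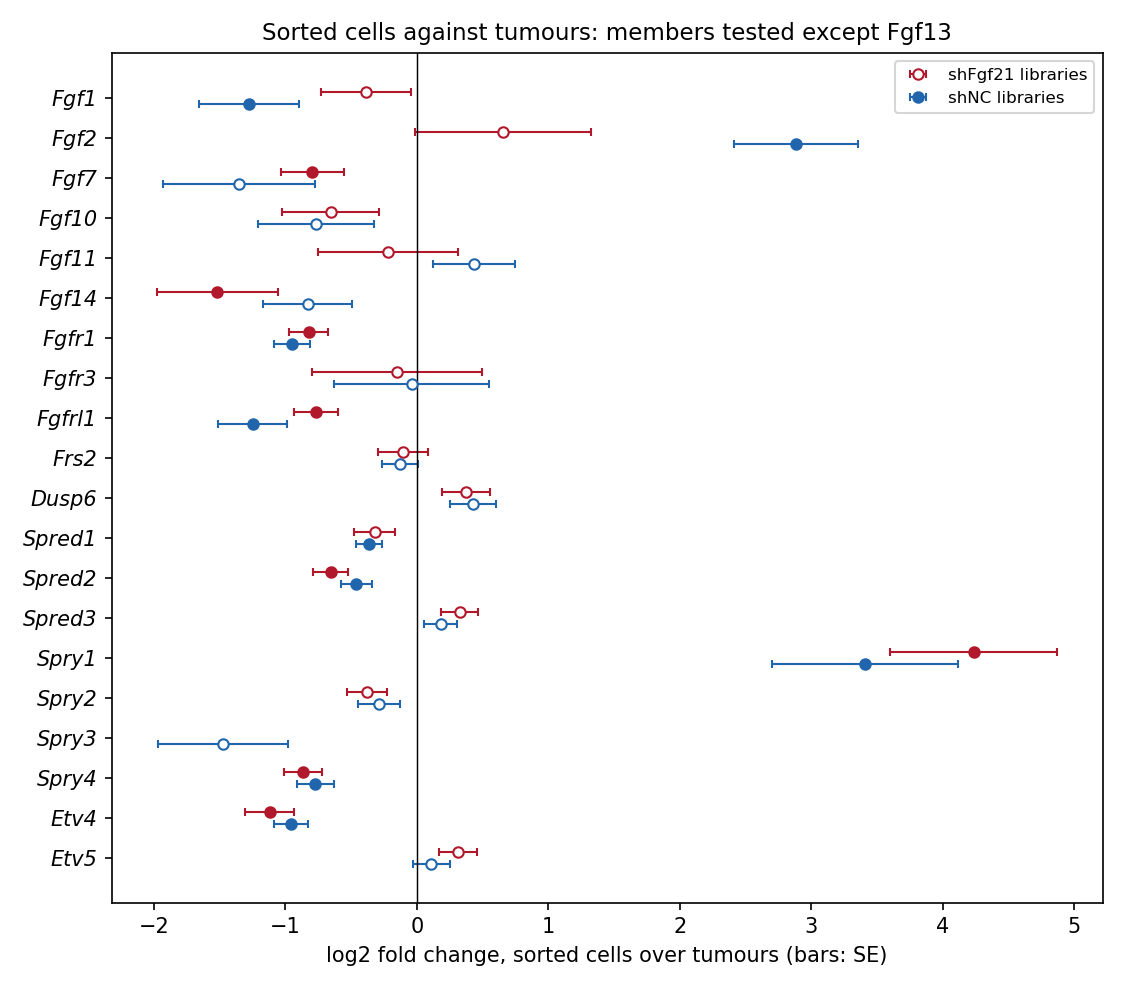
Log2 fold change of each tested member, sorted cells over tumours, in the shFgf21 and the shNC arm. Bars are 1 SE derived from the edgeR F statistic, and filled points are called at an adjusted p under 0.05. Fgf13, which had 0 counts in tumours, is left out. Spry1 lies highest in both arms, at 4.24 and 3.41, and Etv4, Fgfr1, Fgfrl1 and Spry4 lie below 0 in both.

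Genes around the members were tested for the hairpin in the same fits. Of 14 tested extracellular and membrane modulators of FGF binding, 22 RAS-ERK core genes, 17 further ERK output genes and 4 metabolic genes that FGF21 is known to regulate in liver and fat, 0 were called by edgeR in sorted cells, in tumours or in the interaction. Their median log2 fold changes in sorted cells were 0.16, -0.02, 0.08 and -0.18, and in tumours 0.06, 0.05, 0.21 and -0.34, against -0.01 over all genes in both. Single ERK output genes in sorted cells ranged from -0.95 ± 0.324 (SE) for Dusp2 to 0.48 ± 0.115 for Fosl1. Picked after the values were seen, the glucose transporter gene Slc2a1 had 231 ± 28.5 CPM in shFgf21 tumours and 368 ± 33.9 CPM in shNC tumours (SD, n = 3 each). Its log2 fold change was -0.68 ± 0.146 with an edgeR adjusted p of 0.396; DESeq2 called it, with an adjusted p of 0.0155. Pea15a, which encodes a protein that holds ERK in the cytoplasm, was picked in the same way, with 178 ± 4.68 CPM in shFgf21 sorted cells (SD, n = 2) and 126 ± 5.61 CPM in shNC sorted cells (SD, n = 3). Its log2 fold change was 0.48 ± 0.0885 with an edgeR adjusted p of 0.159; DESeq2 called it too, with an adjusted p of 0.00144. Over the other alternatives the adjusted p lay between 0.128 and 0.9996 for Slc2a1 and between 0.157 and 0.624 for Pea15a.

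Between sorted cells and tumours, several of these neighbours were called by edgeR. The median log2 fold changes of the 4 lists, in the same order, were -0.25, 0.09, -0.29 and -0.11 in the shFgf21 arm, against 0.01 over all genes, and -0.37, 0.09, -0.11 and -0.05 in the shNC arm, against -0.02. Of the 14 modulators 3 were higher and 2 lower in shFgf21 sorted cells, and 2 higher and 3 lower in shNC sorted cells. Sdc3, a heparan sulphate proteoglycan, had 669 ± 104 CPM in shFgf21 sorted cells and 11.1 ± 1.40 CPM in shFgf21 tumours, a log2 fold change of 5.94 ± 0.176 (edgeR adjusted p = 1.325e-07). In the shNC arm it was 4.90 ± 0.312 (edgeR adjusted p = 1.332e-05). Flrt3, a membrane protein that binds FGF receptors, was higher in shNC sorted cells by 4.34 ± 0.329, and Sdc4 in shFgf21 sorted cells by 0.43 ± 0.145. The proteoglycan genes Gpc1 and Sdc2 were lower in sorted cells of both arms, with log2 fold changes of -0.75 and -0.86 in shFgf21 and -0.93 and -0.88 in shNC.

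Of the 22 core genes, 3 were higher and 0 lower in shFgf21 sorted cells, and 2 were higher and 3 lower in shNC sorted cells. Cbl, a ubiquitin ligase that removes active receptors, was higher by 1.39 ± 0.128 in the shFgf21 arm and by 1.21 ± 0.193 in the shNC arm. Grb2, the adaptor that brings SOS to the receptor complex, was higher by 1.15 ± 0.300 in the shFgf21 arm. In the shNC arm Pea15a was higher by 0.46 ± 0.113, while Nf1, a RAS inhibitor, was lower at -0.36 ± 0.0995.

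Of the 17 ERK output genes, 2 were higher and 6 lower in shFgf21 sorted cells, and 1 was higher and 4 lower in shNC sorted cells. Dusp2, a nuclear phosphatase known from activated leukocytes, was higher by 2.85 ± 0.217 in the shFgf21 arm and by 3.02 ± 0.443 in the shNC arm. The immediate early gene Fos was higher by 1.90 ± 0.346 in the shFgf21 arm, where the epidermal growth factor family ligand Ereg and the AP-1 gene Fosl1 were lower at -0.91 ± 0.179 and -0.79 ± 0.253. In the shNC arm Spsb1 and the ephrin receptor gene Epha2 were lower, at -0.82 ± 0.250 and -0.77 ± 0.139. Of the 4 metabolic genes, Slc2a1 was higher in sorted cells by 0.83 ± 0.150 in the shFgf21 arm and 0.48 ± 0.133 in the shNC arm. Angptl4, an inhibitor of lipoprotein lipase, was lower in shNC sorted cells at -0.71 ± 0.191.

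Of these neighbours, Sdc3, Sdc2, Cbl and Dusp2 in both arms, Slc2a1 and Fos in the shFgf21 arm, and Flrt3, Gpc1 and Epha2 in the shNC arm were called under every setting run. Grb2, Ereg, Sdc4, Fosl1 and Gpc1 lost their call in the shFgf21 arm without sorted replicate 2, at adjusted p-values of 0.23, 0.0605, 0.129, 0.141 and 0.0832, and Sdc4, Fosl1 and Gpc1 also without sorted replicate 1, at 0.266, 0.202 and 0.0732. Sdc4 did so without tumour replicate 2 or 3 as well. The value of Grb2 without sorted replicate 2 was 0.55. With all 4 groups in 1 fit Ereg, Sdc4 and Fosl1 were not called (adjusted p = 0.161, 0.263 and 0.0582), nor with no filter Grb2, Sdc4 and Fosl1 (0.0761, 0.103 and 0.111), Sdc4 under upper-quartile scaling (0.126) and Fosl1 at a mean of at least 5 CPM (0.0505). In the shNC arm Nf1, Pea15a, Spsb1, Angptl4 and Slc2a1 were each not called without any 1 of the sorted replicates, at adjusted p-values between 0.0506 and 0.127. Without tumour replicate 6 Nf1 and Slc2a1 were not called either, nor were Nf1 and Angptl4 without tumour replicate 1 and Angptl4 without tumour replicate 2. Nf1 was also lost with no filter (0.0678), Angptl4 with limma voom (0.0556), and Spsb1 with limma voom (0.0531) and under the 5 CPM filter (0.052).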

How the data were processed

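The authors deposited 1 table with raw counts and FPKM values per gene for all 11 libraries. Per the submitters' processing notes the build was mm10; aligner, counting program and strand setting were not given in the sources used here. FPKM values were used as deposited by the authors, only to order genes by level. For Dusp6, Fgf15 and Fgf22 the gene length they imply exceeds the span of the gene. CPM were computed from the deposited counts with TMM factors over all libraries. Groups followed the titles. Each comparison was fitted on the counts of all genes that passed filterByExpr (edgeR 4.0.16, R 4.3.3; quasi-likelihood F-test, Benjamini-Hochberg adjusted p under 0.05), and checked on simulated data first. Alternatives were median-ratio and upper-quartile scaling, no filter (at least 1 count), a mean of at least 5 CPM, DESeq2 1.42.0, limma 3.58.1 voom with quality weights, all 4 groups in 1 fit, the title number as a replicate block, and leaving out each library. The members and lists were chosen with earlier results of these data known. Every member above 3 counts in some library was described. Neighbouring genes were named by the 2 largest called fold changes in each direction, at a mean of at least 10 CPM; 1 gene that this rule names is not reported here. All 40 members matched GENCODE M21 by identifier and coordinates. Libraries of 1 group differed by more than counting noise, so none was counted as a duplicate. Promoter sequences are from RefSeq, GRCm38.p6.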

Additional observations from a re-analysis of the deposited data

How the results depend on the processing

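No member was called for knockdown in sorted cells, in tumours or in the interaction under any alternative run. Between sorted cells and tumours, leaving out 1 library gave 7 to 11 called members in the shNC arm and 4 to 11 in the shFgf21 arm; the 4 came without shFgf21 sorted replicate 2. Other settings gave 7 to 11 and 6 to 10. Direction was followed for members with an unadjusted p under 0.05 in a comparison and for the named neighbours, and none of these changed it. The other members were not followed across settings. Counts over all genes moved more: for knockdown in sorted cells 13 became 1 with no filter or with 4 groups in 1 fit and 246 with DESeq2, and 0 to 34 without 1 library. In tumours 5 became 1 at a mean of 5 CPM, 115 with DESeq2, 21 with voom and 26 with 4 groups, and 0 to 8 without 1 library. With DESeq2, Slc2a1 in tumours had an adjusted p of 0.0155 and Pea15a in sorted cells of 0.00144 (over the other alternatives 0.128 to 0.9996 and 0.157 to 0.624). The interaction gave 0 to 33 genes. The shFgf21 count of 5808 became 2868 to 7052 without 1 library. Upper-quartile scaling moved the share of higher calls to 51.4% of 6394 genes in the shFgf21 arm, against 63.5% of 5808, and the median log2 fold change to -0.11. Tumour title numbers 1 and 2 occur in both arms. The correlations of deviations were 0.165 and -0.153 for shared numbers and 0.000863 and 0.0528 for crossed ones. So few correlations cannot settle whether the libraries are paired. With the replicate block 0 members and 131 genes were called. Fgf21, Klb and the other members with few counts could not be compared at this depth.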
